A study of Mus musculus with 9 samples.

Results

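The 10 adipogenic and lipid storage genes described here are Pparg, Cebpa, Lpl, Cd36, Fabp4, Adipoq, Plin2, Fasn, Scd1 and Acaca. They were chosen by name, with earlier results of these data known, and all 10 were among the 19938 genes measured. Each was followed by its brightest probe set with a single annotated symbol, so no gene was lost to a filter. Affymetrix Gene ST arrays were run on RNA of mouse embryonic fibroblasts (MEFs) of 3 genotypes, 3 arrays a genotype. Triple mutant (TM) MEFs carried mutations in ERO1α, ERO1β and PRDX4 (Ero1α m/m and Ero1β m/m with Prdx4 m/y), double mutant (DM) MEFs in ERO1α and ERO1β alone (the same Ero1 alleles with Prdx4 +/+), and the third genotype is labelled wild type (WT). For the controls among isolated MEFs, however, the study's methods give an Ero1α m/+ genotype that is also Ero1β m/m, with Prdx4 +/+, so the Ero1β mutation may be shared by all 3 genotypes. The cells came from embryos of a background labelled C57B/L6 and are given as transformed with T antigen, in medium with no adipogenic mixture named. The study's methods describe both primary MEFs and MEFs immortalized with large T antigen, and do not name which were on the arrays. The sources used here do not say how many embryos or lines each genotype stands for, nor that the 3 arrays of a genotype are separate cultures, so a p-value here reflects array-to-array spread that may be purely technical.

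ERO1α, ERO1β and PRDX4 are oxidases of the endoplasmic reticulum that feed disulfide bonds into secreted proteins. Fat cells arise from fibroblast-like precursors when the early factors C/EBPβ and C/EBPδ induce the nuclear receptor PPARγ and C/EBPα, which then sustain each other. PPARγ pairs with the retinoid X receptor and switches on genes that take up, carry and store fatty acids, among them Lpl, Cd36, Fabp4 and Adipoq. New fatty acids are made by a separate route, from acetyl-CoA carboxylase (Acaca) through fatty acid synthase (Fasn) to stearoyl-CoA desaturase (Scd1), driven largely by SREBP factors, and growing fibroblasts use it to build membranes.

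RNA levels below are the deposited RMA values on the log2 scale, in which a step of 1 is a doubling. A difference was called where the Benjamini-Hochberg adjusted p from limma over all genes was under 0.05 and the change over 1.5-fold. In TM against WT MEFs 2 of the 10 genes were called higher and 1 lower, against 5.59% and 3.56% of all genes (9.15% either way). In DM against WT 2 were called higher and 1 lower, against 5.28% and 5.67% of all genes (10.9% either way). In TM against DM 2 were called higher and 2 lower, against 4.68% and 3.61% of all genes (8.29% either way). Higher calls made up 61.1% of all calls in TM against WT and 48.2% in DM against WT. These shares were 50.6% and 36.6% after median centring of the arrays. They were 62.3% and 51% with quantile normalization, and 67.9% and 54.8% with cyclic loess. Both comparisons with WT use the same 3 WT arrays. Array medians lay between 7.62 and 7.72, and arrays of 1 genotype correlated at 0.994 to 0.997 across probe sets. Ero1a RNA averaged 9.06 in TM, 9.46 in DM and 11.86 in WT MEFs, and Prdx4 RNA 6.30 in TM, 10.68 in DM and 10.56 in WT MEFs, so each was lower where the labels give it as mutated. Ero1b RNA averaged 7.94 in TM, 7.70 in DM and 7.65 in WT MEFs and was not called.

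**Figure D1:**
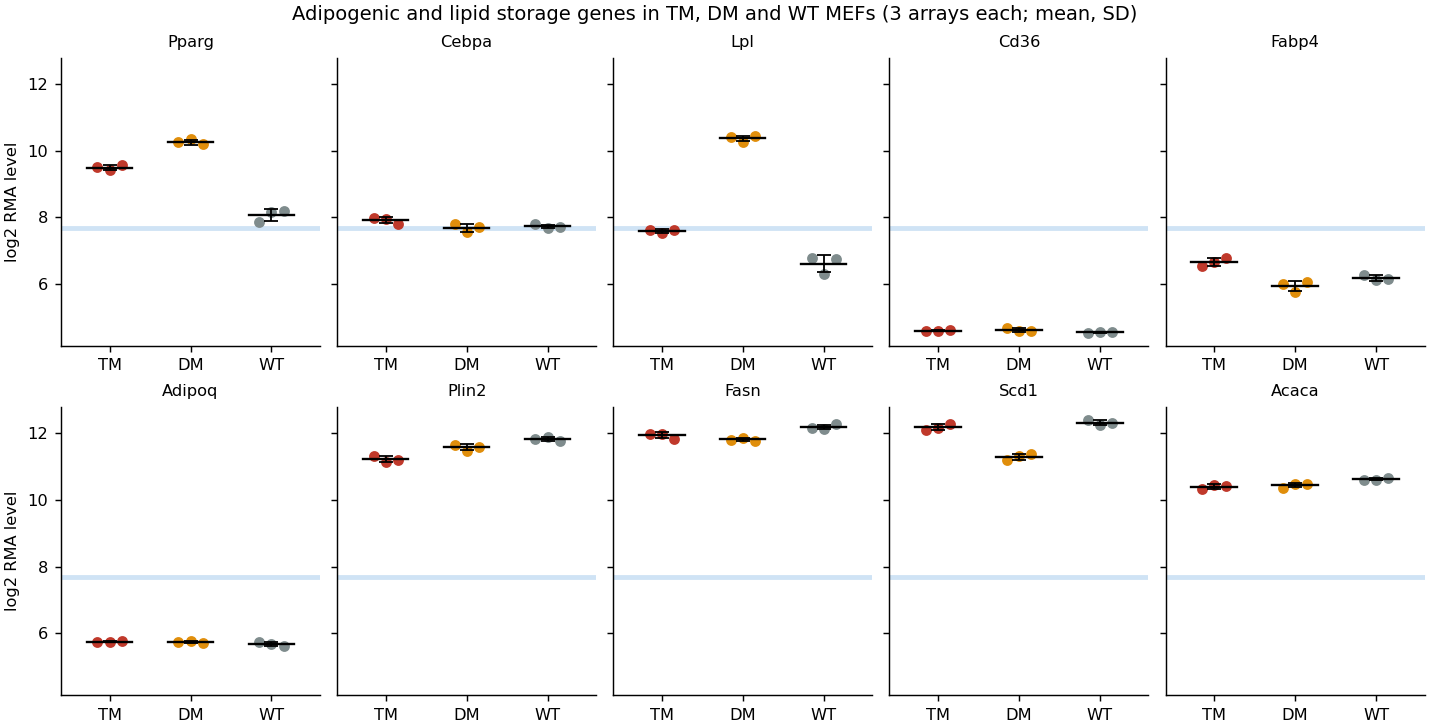
Log2 RMA level of the 10 genes in TM (red), DM (orange) and WT (grey) MEFs, with single arrays as points, means as horizontal marks and SDs as error bars (n = 3 arrays a genotype). The blue band is the range of the array medians, 7.62 to 7.72. Pparg and Lpl stand highest in DM, whereas Cd36, Fabp4 and Adipoq lie under the band on all 9 arrays.

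The start sites of the regulator whose RNA changed most, Pparg, are shown first, as RefSeq gives more than 1 and the platform annotation pairs its single probe set with several Pparg transcripts, so the array does not tell them apart. Of the 10 genes, 7 had an entry in the RefSeq promoter table of GRCm38.p6, which holds a window of 300 bases around each start. The windows of Plin2, which fell in TM, and of Fasn, the central enzyme, are printed beside the 3 of Pparg. Capitals mark matches, on either strand, to the GC box with letters GGGCGG, the CCAAT box, the E-box with letters CACGTG, the nuclear receptor half-site with letters AGGTCA and the TATA box with letters TATAAA.
Pparg start 1, chr6:115360894-115361193, + strand: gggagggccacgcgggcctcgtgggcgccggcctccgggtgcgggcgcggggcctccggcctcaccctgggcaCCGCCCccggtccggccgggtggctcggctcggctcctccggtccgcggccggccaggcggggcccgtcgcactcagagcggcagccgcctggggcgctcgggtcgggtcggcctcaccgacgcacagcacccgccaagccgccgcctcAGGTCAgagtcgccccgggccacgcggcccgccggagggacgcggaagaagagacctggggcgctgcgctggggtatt
Pparg start 2, chr6:115362099-115362398, + strand: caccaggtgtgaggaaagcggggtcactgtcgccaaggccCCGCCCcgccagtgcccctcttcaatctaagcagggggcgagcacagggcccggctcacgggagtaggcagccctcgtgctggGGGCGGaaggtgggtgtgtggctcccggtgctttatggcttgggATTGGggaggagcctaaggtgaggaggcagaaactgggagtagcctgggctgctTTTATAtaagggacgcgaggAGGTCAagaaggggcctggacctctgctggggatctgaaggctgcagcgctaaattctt
Pparg start 3, chr6:115421816-115422115, + strand: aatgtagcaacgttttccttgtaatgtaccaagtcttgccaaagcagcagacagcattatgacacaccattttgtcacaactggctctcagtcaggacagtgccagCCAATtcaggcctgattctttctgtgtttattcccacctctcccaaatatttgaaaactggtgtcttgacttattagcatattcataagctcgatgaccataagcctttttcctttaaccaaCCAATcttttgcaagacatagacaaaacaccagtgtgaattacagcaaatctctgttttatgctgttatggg
Plin2, chr4:86670010-86670309, - strand: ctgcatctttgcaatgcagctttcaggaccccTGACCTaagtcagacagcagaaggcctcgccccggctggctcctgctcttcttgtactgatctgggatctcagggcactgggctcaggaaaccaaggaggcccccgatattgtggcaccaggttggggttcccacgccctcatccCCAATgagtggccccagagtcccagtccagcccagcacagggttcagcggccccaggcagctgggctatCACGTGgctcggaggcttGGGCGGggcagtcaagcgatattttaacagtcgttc
Fasn, chr11:120824498-120824797, - strand: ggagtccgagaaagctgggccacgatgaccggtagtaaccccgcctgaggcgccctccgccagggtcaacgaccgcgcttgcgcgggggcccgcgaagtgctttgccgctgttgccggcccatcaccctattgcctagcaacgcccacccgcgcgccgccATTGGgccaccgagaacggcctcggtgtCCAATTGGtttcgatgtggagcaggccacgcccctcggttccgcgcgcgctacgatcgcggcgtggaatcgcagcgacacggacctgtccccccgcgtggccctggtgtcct
The first Pparg window, with a GC content of 80.3%, held 1 GC box and 1 half-site. The second, at 62.7%, held 2 GC boxes, 1 CCAAT box, 1 half-site and 1 TATA box. The third, at 40.3%, held 2 CCAAT boxes and no GC box. The Plin2 window held 1 GC box, 1 CCAAT box, 1 E-box and 1 half-site, and the Fasn window 3 CCAAT boxes, 2 of which overlap. Among the 32851 windows of the table, 35.7% hold a GC box, 37.4% a CCAAT box, 7.15% an E-box, 16.3% the half-site and 13.6% a TATA box. The direct repeat of the half-site with 1 base between, which PPARγ prefers, was in none of these 5 windows and is in 0.0396% of all windows, and the same 5 held no TCACNCCAC (sterol regulatory element, 1.24% of all windows) or TTGCNNCAA (C/EBP palindrome, 2.08%). These matches are a description of the letters alone.

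Pparg, the master regulator of fat cell formation, was higher in both mutants than in WT MEFs, and higher in DM than in TM. Its level was 9.50, 9.43 and 9.56 on the TM arrays, 10.26, 10.34 and 10.19 on the DM arrays and 7.86, 8.17 and 8.20 on the WT arrays. No array of 1 genotype overlapped another, and all 9 lay above the median of their array. Pparg rose 2.68-fold in TM (log2 difference 1.42, SE 0.086, adjusted p = 4.95e-08) and 4.56-fold in DM (2.19, SE 0.086, adjusted p = 7.31e-10). Set against each other, TM MEFs were 0.77 lower than DM on the log2 scale (difference -0.77, SE 0.086, adjusted p = 1.84e-05). In bulk RNA of this kind, a change in the number of cells that express a gene and a change in its RNA per cell cannot be told apart.

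Cebpa, which encodes the partner regulator C/EBPα, showed no call. Its levels were 7.99, 7.96 and 7.81 in TM, 7.79, 7.55 and 7.70 in DM and 7.79, 7.69 and 7.72 in WT MEFs, close to the array medians, with DM array 2 beneath its own. The difference was 0.19 in TM against WT (95% CI 0.03 to 0.35, adjusted p = 0.0773) and -0.05 in DM against WT (95% CI -0.21 to 0.11, adjusted p = 0.659). Both intervals lie within 1.5-fold in either direction. They reflect array-to-array spread that may be purely technical, so they cannot exclude a larger difference between the genotypes. The rise of Pparg in DM thus stood beside a Cebpa level that moved by less than the spread between arrays.

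Lpl encodes lipoprotein lipase, the secreted enzyme that frees fatty acids from circulating triglyceride, and it showed the largest change of the 10 genes in DM. Its level was 7.62, 7.53 and 7.62 on the TM arrays, 10.41, 10.27 and 10.43 on the DM arrays and 6.78, 6.31 and 6.75 on the WT arrays. All 6 TM and WT arrays lay under their array's median and the 3 DM arrays well above it, with no overlap between genotypes. Lpl rose 13.5-fold in DM (log2 difference 3.75, SE 0.11, adjusted p = 3.44e-11) and 1.97-fold in TM (0.98, SE 0.11, adjusted p = 1.4e-05). TM was below DM by a log2 difference of -2.78 (SE 0.11, adjusted p = 7.77e-10).

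The other uptake and carrier genes stayed dim. Cd36, which encodes a fatty acid translocase of the cell surface, ranged only between 4.60 and 4.61 in TM, 4.60 and 4.69 in DM and 4.54 and 4.57 in WT MEFs, between the 6.74th and 7.96th percentile of all probe sets. Its difference was 0.05 in TM (95% CI -0.07 to 0.16, adjusted p = 0.604) and 0.07 in DM (95% CI -0.04 to 0.19, adjusted p = 0.325). The TM and DM arrays all lay above the WT arrays, by amounts that did not pass the test.

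Fabp4, the fatty acid binding protein of fat cells, macrophages and capillary endothelium, read 6.54, 6.66 and 6.78 in TM, 5.99, 5.76 and 6.05 in DM and 6.27, 6.11 and 6.16 in WT MEFs. It was under the median on all 9 arrays, with the 3 genotypes apart. It was higher in TM than in DM by 0.72 (SE 0.086, adjusted p = 3.27e-05), a 1.65-fold change. Against WT it differed by 0.48 in TM (adjusted p = 0.000886) and -0.25 in DM (adjusted p = 0.0418), both under 1.5-fold and so not called. Fabp4 therefore ran the other way from Pparg and Lpl between the mutants. Adipoq, which encodes the fat cell hormone adiponectin, read 5.74, 5.74 and 5.77 in TM, 5.74, 5.78 and 5.70 in DM and 5.74, 5.69 and 5.62 in WT MEFs. Its arrays overlapped in all 3 comparisons, with differences of 0.07 in TM (95% CI -0.05 to 0.19, adjusted p = 0.424) and 0.06 in DM (95% CI -0.07 to 0.18, adjusted p = 0.484).

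Plin2 encodes perilipin 2, the coat protein of lipid droplets in cells other than fat cells, and was bright on all arrays. It read 11.32, 11.15 and 11.19 in TM, 11.66, 11.48 and 11.59 in DM and 11.82, 11.89 and 11.78 in WT MEFs, with no overlap between genotypes. It fell 1.53-fold in TM (log2 difference -0.61, SE 0.068, adjusted p = 1.5e-05), just past the 1.5-fold limit. The call ended without TM array 2 or without WT array 2, at -0.58 in each case, and with quantile normalization (-0.56) or cyclic loess (-0.54). In DM it differed from WT by -0.26 (adjusted p = 0.00975), and TM from DM by -0.36 (adjusted p = 0.00139), both under the fold limit. Plin2 thus had its lowest level in TM and Lpl its highest in DM.

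The enzymes of fatty acid synthesis were bright in all 3 genotypes, and 1 of the 3 was called. Scd1, whose product puts the first double bond into saturated fatty acids, read 12.11, 12.16 and 12.28 in TM, 11.19, 11.31 and 11.37 in DM and 12.39, 12.25 and 12.30 in WT MEFs. The DM arrays stood apart below, whereas those of TM and WT overlapped. Scd1 fell in DM (log2 difference -1.02, SE 0.069, adjusted p = 1.35e-07), was higher in TM than in DM by 0.90 (SE 0.069, adjusted p = 6.23e-07) and differed by -0.13 in TM against WT (95% CI -0.28 to 0.02, adjusted p = 0.207).

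Fasn, which builds palmitate, read 11.99, 11.99 and 11.84 in TM, 11.80, 11.87 and 11.78 in DM and 12.16, 12.13 and 12.27 in WT MEFs. Both mutants lay below WT without overlap, by -0.25 in TM (adjusted p = 0.00961) and -0.37 in DM (adjusted p = 0.000501), each under 1.5-fold. Acaca, the first committed step, read 10.33, 10.45 and 10.42 in TM, 10.37, 10.48 and 10.48 in DM and 10.61, 10.61 and 10.67 in WT MEFs. It too lay below WT in both mutants without overlap, by -0.23 in TM (adjusted p = 0.00912) and -0.19 in DM (adjusted p = 0.0255). A second, dimmer probe set of Acaca gave -0.11 in TM (adjusted p = 0.391) and -0.17 in DM (adjusted p = 0.153).

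Regulators and enzymes were set side by side. Pparg was called higher in both mutants and Cebpa in neither, and the 3 enzymes, of which Scd1 in DM was the single call, had log2 differences of -0.25 to -0.13 in TM and -1.02 to -0.19 in DM. Without regard to size, 5 of the 10 genes lay above WT and 3 below on all 3 TM arrays, against 18.3% and 25.1% of all genes. On the DM arrays 3 lay above and 5 below, against 22.5% and 23.9% of all genes. In TM against DM 3 lay above and 3 below, against 18.5% and 21.6% of all genes.

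**Figure D2:**
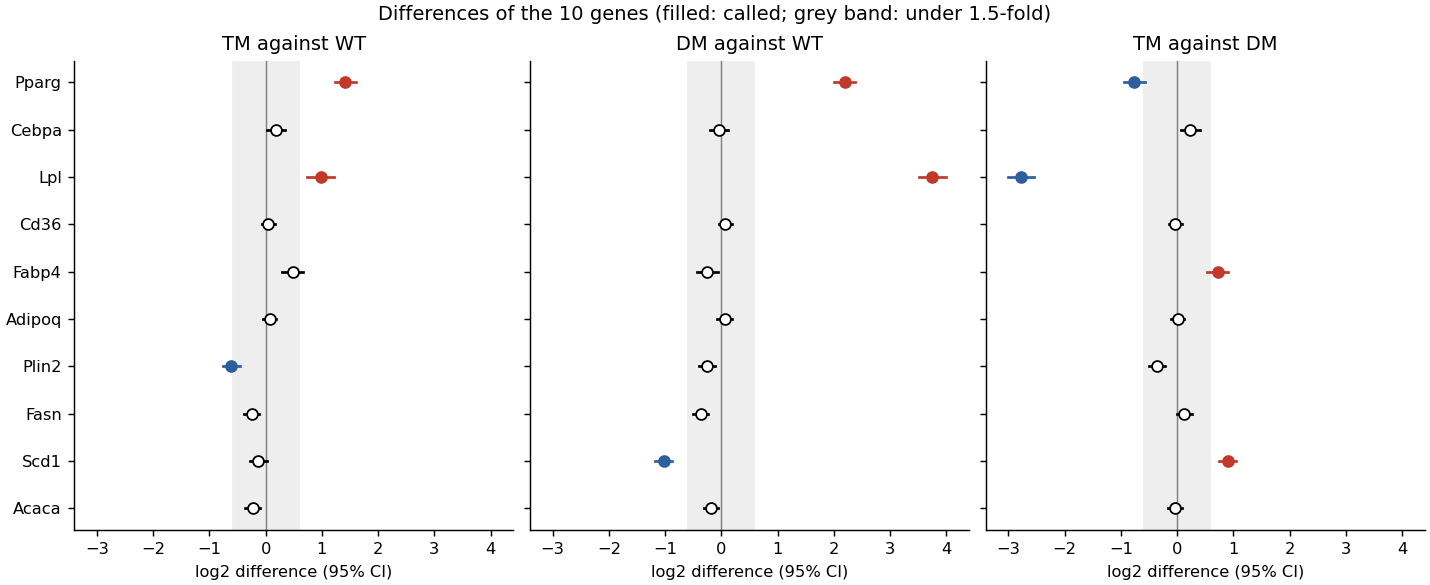
Log2 differences of the 10 genes in TM against WT, DM against WT and TM against DM, with 95% confidence intervals from limma as bars. Filled red and blue points are genes called higher and lower, open points were not called, and the grey band spans changes under 1.5-fold. Lpl reaches 3.75 and Pparg 2.19 in DM, and Scd1 lies at -1.02.

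Wider lists of the same pathways, chosen with earlier results of these data known, are counted next. A list can hold some of the 10 genes, and a gene can be on more than 1 list. Of 21 regulators that promote adipogenesis, Pparg and Cebpa among them, 6 rose and 1 fell in TM, and 3 rose and 3 fell in DM. Their median log2 difference was 0.237 in TM and 0.114 in DM, against -0.029 in TM and 0.025 in DM over all genes. For this list and those below, the shares called over all genes were 5.59% higher and 3.56% lower in TM against WT. In DM against WT these shares were 5.28% and 5.67%, and in TM against DM 4.68% and 3.61%. Cebpd, the early factor C/EBPδ, rose by 1.28 in TM and 1.02 in DM, and its relative Cebpb had differences of 0.36 in TM and 0.37 in DM, under the fold limit. The PPARγ coactivator gene Ppargc1a rose by 1.52 in TM, with 0.55 in DM. Klf5, a factor that acts early in adipogenesis, had log2 differences of -0.71 in TM and -1.35 in DM, both called lower.

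Ebf1, a transcription factor of fat cell precursors, split the mutants. It read 10.08, 10.01 and 10.17 in TM, 7.51, 7.63 and 7.72 in DM and 9.28, 9.24 and 9.27 in WT MEFs, rose by 0.82 in TM and fell by 1.65 in DM (TM against DM 2.47, adjusted p = 3.53e-11). Egr2, which is induced at the onset of adipogenesis, fell by 0.82 in DM and was higher in TM than in DM by 1.05.

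Of 15 regulators that restrain adipogenesis, 6 rose in TM and none fell, and 2 rose and 3 fell in DM. The count of 0 was also 0 at an unadjusted p under 0.05 with the 1.5-fold limit and with the methods' t-test, 2 genes lay lower in TM at that p with no fold limit, and 1 was called lower after median centring. Dlk1, which encodes the preadipocyte factor Pref-1, read 12.42, 12.40 and 12.42 in TM, 9.04, 9.04 and 8.90 in DM and 8.67, 8.59 and 8.53 in WT MEFs. It rose by 3.81 in TM (adjusted p = 5.67e-13) and stood 3.42 above DM. Runx1t1, a corepressor gene, rose by 1.62 in TM and fell by 0.66 in DM, and Gata3, a factor of preadipocytes, rose by 1.59 in TM and 0.71 in DM. In DM Sox9 and Nr2f2 were called lower, at -1.65 and -1.44, and the Wnt ligand gene Wnt10b rose by 0.74. TM exceeded DM in 9 of the 15 and fell below it in none, a count of 0 by the same tests, with 2 lower at an unadjusted p under 0.05 and no fold limit.

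Of 16 measured targets of PPARγ, which hold 5 of the 10 genes, 10 were under the median of every array. In TM 2 rose, Lpl among them, and 1, Plin2, fell. In DM 3 rose, again with Lpl, and none fell. The medians were -0.039 in TM and 0.059 in DM. The 0 held at an unadjusted p under 0.05 with the fold limit and with the methods' t-test. At that p with no fold limit 4 lay lower, and 1 was called lower under each of the 3 other scalings (median centring, quantile, cyclic loess). Pdk4, which encodes a kinase that turns cells from glucose to fat as fuel, read 10.61, 10.53 and 10.63 in TM, 10.45, 10.50 and 10.45 in DM and 7.64, 7.68 and 7.64 in WT MEFs. It rose by 2.94 in TM (adjusted p = 1.29e-12) and 2.82 in DM (adjusted p = 1.02e-12), and the mutants differed by 0.12 (adjusted p = 0.106). Angptl4, which encodes a secreted inhibitor of lipoprotein lipase, read 10.26, 10.15 and 10.05 in TM, 10.88, 10.68 and 10.75 in DM and 9.81, 9.74 and 9.76 in WT MEFs. It rose by 1.00 in DM (adjusted p = 2e-07), differed by 0.38 in TM and was lower in TM than in DM (-0.62, adjusted p = 2.12e-05). Its order of genotypes was that of Lpl.

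Among 14 measured genes of fatty acid uptake and activation, 2 rose and 1 fell in each mutant. After median centring 2 fell in each, and with quantile normalization or cyclic loess 1 fell in each. Lpl was 1 of the 2 that rose in each. Fabp5, the paralog of Fabp4 in skin and other tissues, read 11.32, 11.13 and 11.30 in TM, 11.31, 11.16 and 11.17 in DM and 11.98, 12.06 and 12.04 in WT MEFs, and was called lower in both mutants, at -0.77 in TM and -0.81 in DM. Vldlr, a lipoprotein receptor gene, rose by 0.88 in TM. Of 15 droplet proteins 1 rose and 1, Plin2, fell in TM, where Bscl2, the gene of the droplet assembly protein seipin, rose by 0.87. None was called in DM, a count of 0 that was the same at an unadjusted p under 0.05 with the fold limit and with the methods' t-test, with 2 higher and 5 lower at that p and no fold limit, and 1 lower under each of the 3 other scalings. Plin1, the perilipin of fat cells, averaged 7.53 in TM, 7.64 in DM and 7.58 in WT MEFs, and Plin3 10.44 in TM, 10.21 in DM and 10.39 in WT MEFs, neither called against WT.

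Of 15 genes of triglyceride synthesis 1 fell in each mutant, also with quantile normalization or cyclic loess. After median centring 2 fell in TM and 4 in DM. None rose in either, also at an unadjusted p under 0.05 with the fold limit and with the methods' t-test, while 2 lay higher in DM at that p with no fold limit. Gpat3, a glycerol-phosphate acyltransferase gene, fell by 1.28 in TM, and Dgat2, whose product makes the final triglyceride bond, fell by 0.67 in DM. Of 7 measured genes of lipolysis 1 rose and 1 fell in TM and 2 rose in DM. Mgll, the monoglyceride lipase gene, rose by 1.22 in DM, and the lysosomal lipase gene Lipa by 0.91 in TM and 0.94 in DM. Pde3b, through which insulin curbs lipolysis, fell by 1.70 in TM and was lower in TM than in DM (difference -2.16).

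Fatty acid synthesis was compared with sterol synthesis, the other route under SREBP control. Of 18 measured fatty acid synthesis genes none was called in TM, and 1 rose and 2 fell in DM. The counts of 0 in TM were the same at an unadjusted p under 0.05 with the fold limit and with the methods' t-test, with 1 higher and 9 lower at that p and no fold limit. After median centring 1 fell in TM and 4 in DM, whereas quantile normalization and cyclic loess gave the same counts as the deposited scale. Beside Scd1, the elongase gene Elovl6 fell by 0.84 in DM, and Mid1ip1, whose product activates acetyl-CoA carboxylase, rose by 0.86. The Scd1 paralog Scd2 read 12.88, 12.79 and 12.88 in TM, 13.33, 13.38 and 13.41 in DM and 13.43, 13.35 and 13.42 in WT MEFs, with differences of -0.55 in TM (adjusted p = 6.69e-06, under the fold limit) and -0.03 in DM (adjusted p = 0.762). Scd1 was thus at its lowest in DM and Scd2 in TM. Acly, the gene that supplies acetyl-CoA, differed by -0.10 in TM and -0.36 in DM, Acacb by -0.05 in TM and 0.22 in DM, and the regulator gene Srebf1 by -0.27 in TM and -0.07 in DM, none called.

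Of 19 measured sterol synthesis genes, with the regulator genes Insig1, Srebf2 and Scap among them, 10 fell in TM and 16 in DM. Their medians were -0.627 in TM and -1.015 in DM, where the fatty acid synthesis genes had -0.179 in TM and -0.166 in DM. Insig1 was among the falls in both mutants and Srebf2 among those in TM. The falls numbered 7 to 11 in TM and 15 to 17 in DM under the 3 other scalings. None rose in either, by any of the tests named, apart from 1 gene in DM at an unadjusted p under 0.05 with no fold limit. Idi1 was called lower at -0.70 in TM and -1.67 in DM, and Dhcr7, the last enzyme of cholesterol synthesis, at -1.24 in TM and -1.03 in DM. Msmo1 fell by 1.60 in DM and was higher in TM than in DM by 1.11, the same order of genotypes as Scd1. In TM against DM, 4 of the sterol synthesis genes were called higher and 1, Ebp, lower (-0.83). No test was made of the difference between the lists.

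**Figure D3:**
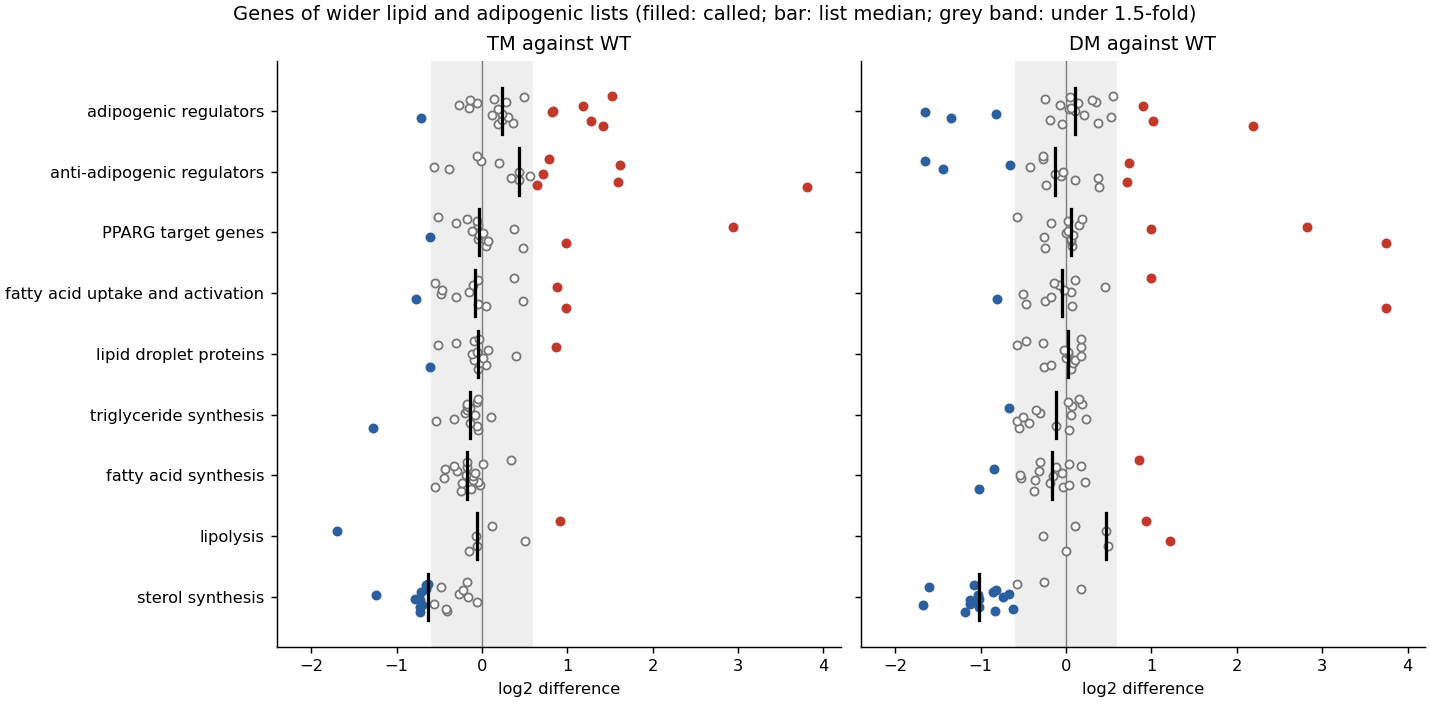
Log2 differences of every measured gene of 9 lists, in TM against WT and DM against WT. Each point is a gene, filled red where called higher and blue where called lower, black bars are list medians and the grey band spans changes under 1.5-fold. Lpl (3.75 in DM), Pdk4 and Dlk1 (3.81 in TM) stand far to the right, and the sterol genes lie to the left with medians of -0.627 in TM and -1.015 in DM.

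The cells were checked against markers of the cell types that express these genes. Of 11 fibroblast markers 10 lay above the median on at least 1 array, among them Vim, which averaged 14.15 in TM, 14.16 in DM and 14.18 in WT MEFs. Of 7 measured white fat cell markers 6, with Plin1, Cidec and Lep, were under the median on every array, and the exception was the lipase gene Lipe. The mean log2 level of the 7 ranged between 6.94 and 7.06 in TM, 7.09 and 7.21 in DM and 6.98 and 7.04 in WT MEFs, and none was called against WT. With the fold limit the same held at an unadjusted p under 0.05 and with the methods' t-test, and with no fold limit 1 lay higher in TM and 3 in DM. Macrophages express Lpl, Cd36, Fabp4 and Pparg as well, and endothelium expresses Cd36, Fabp4 and Pparg. Of 8 macrophage markers 6 were under the median on every array, and the exceptions were Cd68 and Cd14. Cd68 averaged 9.19 in TM, 8.93 in DM and 9.22 in WT MEFs. The mean of the 8 was 6.76 to 6.80 in TM, 6.69 to 6.77 in DM and 6.75 to 6.76 in WT MEFs. Of 7 endothelial markers 6 were under the median on every array. The exception, Egfl7, averaged 8.81 in TM, 8.69 in DM and 9.22 in WT MEFs. The mean of the 7 was 6.86 to 6.96 in TM, 6.78 to 6.90 in DM and 6.81 to 6.86 in WT MEFs. No marker of either type was called against WT on the deposited scale, with the same count of 0 at an unadjusted p under 0.05 with the fold limit and with the methods' t-test. With no fold limit 1 macrophage marker lay lower in DM, and of the endothelial markers 3 lay higher and 1 lower in TM, and 2 higher and 1 lower in DM, where 1 was called lower after median centring.

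Some markers of mesothelium and simple epithelium were high in DM, as Lpl was, and others were not. Of 8 such genes 4 rose and 1 fell in DM, and none rose and 2 fell in TM, where none was higher by any of the tests named. Their mean level was 7.32 to 7.50 in TM, 10.02 to 10.15 in DM and 8.17 to 8.19 in WT MEFs. Upk3b, a uroplakin gene, read 6.96, 7.21 and 6.99 in TM, 12.29, 12.07 and 12.42 in DM and 7.16, 7.21 and 7.21 in WT MEFs. Wt1, a transcription factor gene of mesothelium, averaged 7.61 in TM, 11.59 in DM and 7.54 in WT MEFs. Upk1b and Krt18 also rose in DM, by 5.57 and 2.69. Msln, the gene of mesothelin and a main mesothelial marker, ran the other way, with means of 7.73 in TM, 9.91 in DM and 11.34 in WT MEFs, and was called lower in both mutants (-3.61 in TM, -1.43 in DM). Against WT, DM MEFs differed by -0.40 in Krt19, -0.34 in Epcam and 0.06 in Krt8, none called. The part of these markers in the levels of Lpl and Pparg was not tested. Of the 11 fibroblast markers 4 rose and none fell in TM, and 2 rose and 2 fell in DM. The count of 0 was the same at an unadjusted p under 0.05 with the fold limit and with the methods' t-test, with 3 lower in TM at that p and no fold limit. Pdgfra and Col1a2 were called lower in DM, at -1.91 and -1.71, and Pdgfrb and Dcn higher, at 1.18 and 1.14. In TM Thy1 rose by 2.93, Lum by 2.06, Dcn by 1.83 and Pdgfrb by 1.23. Lum was under the median of every array, with means of 6.86 in TM, 4.91 in DM and 4.80 in WT MEFs.

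**Figure D4:**
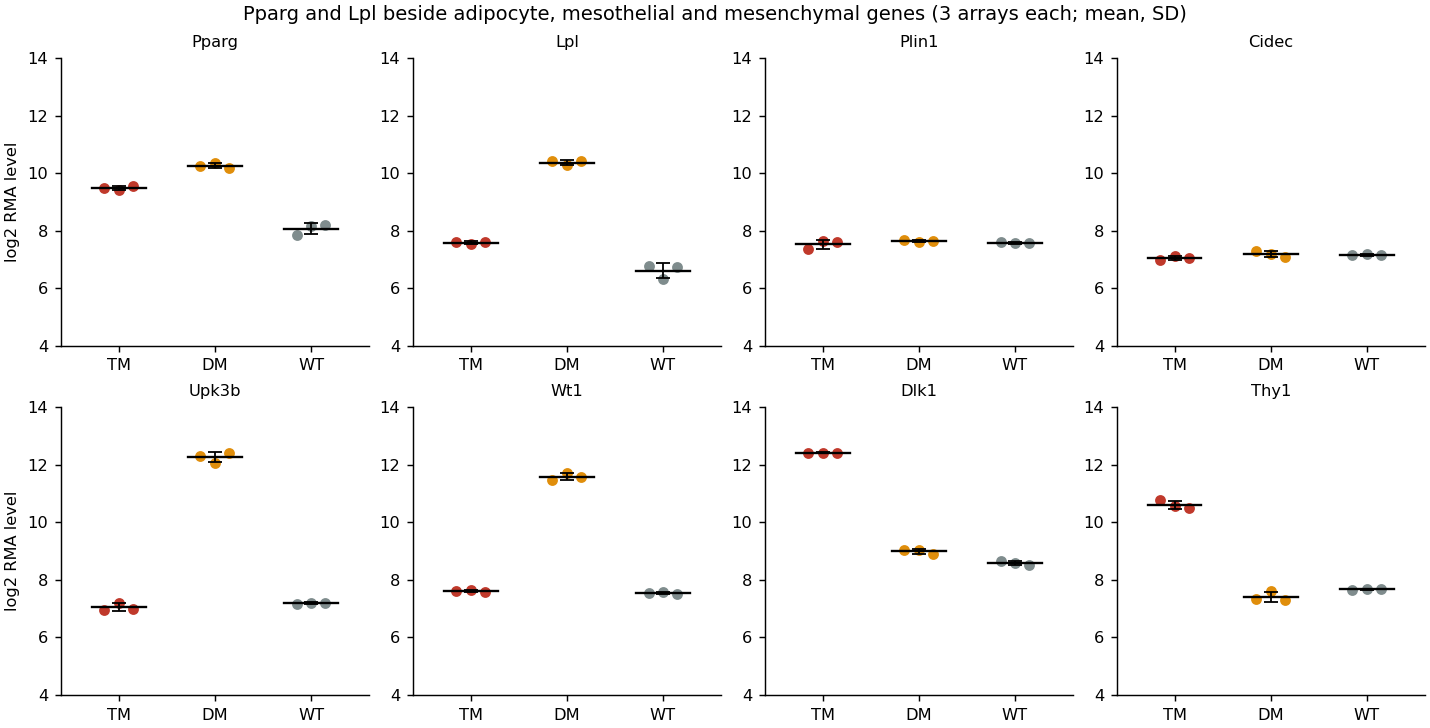
Log2 RMA level of Pparg and Lpl beside the fat cell genes Plin1 and Cidec, Upk3b and Wt1, which are 2 of the 8 mesothelial and epithelial markers, the preadipocyte gene Dlk1 and the fibroblast gene Thy1, with arrays as points, means as marks and SDs as error bars (n = 3 arrays a genotype). Plin1 and Cidec show no call, Upk3b and Wt1 are high in DM alone, unlike Msln of the same list (not drawn), which is highest in WT at 11.34, and Dlk1 and Thy1 are high in TM.

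For the 3 genes whose genotype means spanned over 1 on the log2 scale, the genes with the most similar pattern were looked up, by the root-mean-square difference of gene-centred levels over the 9 arrays. Nearest to Pparg were Tnfsf18 at 0.081, Efemp1 at 0.108 and Creb3l1 at 0.109. Nearest to Lpl were Klhl13 at 0.201, Ces2g at 0.232 and Arhgef26 at 0.250. Nearest to Scd1 were Syne1 at 0.080, Cd44, the hyaluronan receptor gene, at 0.081 and Sdc2, a syndecan gene, at 0.089. None of these 9 genes is on the lipid lists, and the likeness is a description over arrays that fall into 3 groups.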

How the data were processed

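Gene expression was measured in TM, DM and WT MEFs, 3 arrays each. Per the paper's methods, triplicate RNA samples were hybridised to Affymetrix Gene ST arrays and analysed in GeneSpring GX with RMA and PLIER; PLIER values were not analysed here. The authors' deposited values are log2 RMA values, already background corrected, normalized between arrays and summarised per probe set, which can remove small shifts of whole genotypes. No genome build is given for the array values in the sources used here, and the promoter windows are on GRCm38.p6. Of 35556 probe sets, 21789 have 1 symbol, 1621 several and 12146 none listed, and 21698 gene identifiers matched the RefSeq table. The brightest probe set of each gene left 19938 genes.

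All 9 arrays entered 1 limma model (limma 3.58.1, R 4.3.3, lmFit and eBayes, 6 residual degrees of freedom), checked on simulated data. In 35.2% of probe sets at least 2 arrays hold 1 identical value. Among the 10 genes this occurs within a genotype for Lpl, Cd36 and Fasn. Its effect on their spread was not tested. The number of arrays limits the precision. The 10 genes and all lists were chosen with earlier results of these data known. Named are all 10 genes, up to 3 called genes of each list with the largest change in each comparison, and fixed paralogs and partners. Further called genes of a list are counted and not always named. Alternatives were 3 scalings, a filter on dim genes, other variance models, array weights, the methods' t-test, fits of 6 arrays, other fold limits and probe sets, a replicate block and leaving out each array. No batch is labelled.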

Additional observations from a re-analysis of the deposited data

Results flagged for a closer look

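In 4 of the 10 genes the TM and DM arrays differed in the direct comparison of TM against DM in the limma model. Both the adjusted p limit of 0.05 and the 1.5-fold limit were passed, a call made for 8.29% of all genes. As the number of embryos or lines is not stated, a Prdx4 effect and a difference between lines cannot be told apart. The same holds for a genotype effect in both comparisons with WT. The study's crosses list Prdx4 m/y as male and +/+ as female, so embryo sex may also differ between TM and the other genotypes. Pparg and Lpl were lower in TM than in DM MEFs, with log2 differences of -0.77 and -2.78. Fabp4 was higher in TM by 0.72, with all 9 arrays under the array median, and Scd1 by 0.90. Plin2 and Cebpa also passed the adjusted p in limma (-0.36, adjusted p = 0.00139, and 0.23, adjusted p = 0.0291) but not the fold limit.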

How the results depend on the processing

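The replicate numbers of the labels do not pair the arrays: same-numbered arrays correlated at -0.239 to 0.168 in their deviations, over 0.1 in 1 of 9 pairs. With the replicate block TM against WT had 2 genes called higher and 1 lower among the 10, DM against WT 2 and 1, and TM against DM 2 and 2, as without it. Over all genes the 3 comparisons had 1824, 2184 and 1653 calls with the block and 1824, 2183 and 1653 without.

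Of the 10 genes, 0 were lower in TM against WT with quantile normalization or cyclic loess (Plin2), and 0 to 1 when an array was left out. With no fold limit 3 were lower in TM and 5 in DM against WT. With a 2-fold limit 1 was higher and 0 lower in TM against WT, and 0 higher and 1 lower in TM against DM. With dim genes left out, 1 was higher in TM against DM, as Fabp4 was no longer tested. No difference of a called gene changed sign under any alternative run. Genes under the array median, Cd36, Fabp4 and Adipoq throughout and Lpl in TM and WT MEFs, may have changes compressed by background.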

Other observations

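Beyond adiponectin, the fat cell hormones and their receptors showed 1 call. Apln, which encodes the peptide hormone apelin, averaged 9.37 in TM, 9.06 in DM and 11.19 in WT MEFs, with log2 differences of -1.82 in TM and -2.12 in DM, both called lower. It was the single gene called among 10 measured, in both mutants. Leptin RNA (Lep) averaged 6.06 in TM, 6.23 in DM and 6.06 in WT MEFs, with no call.

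Of 6 brown fat markers all were under the median of every array. Dio2, the deiodinase gene, was called lower at -0.91 in TM and -1.03 in DM, and Elovl3 rose by 0.62 in TM, a call that ended after median centring. The uncoupling protein gene Ucp1 averaged 6.32 in TM, 6.38 in DM and 6.30 in WT MEFs.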
